A study of Mus musculus with 10 samples.

Results

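The genes described are 10 that are commonly used as reference genes in quantitative RT-PCR, out of 29883 genes in the count table. They were chosen by name and not by their values. They are Ublcp1 and Ppp2r2a, which served as reference genes of the study's own qRT-PCR, and Actb, Gapdh, Hprt, Tbp, Ppia, Ywhaz, Pgk1 and Gusb. For its amygdala samples the study dropped Ublcp1 as a reference, because its expression there differed between the strains. All 10 had a row, and no filter on low counts removed any of them. RNA came from the nucleus accumbens (NAc) of 5 C57BL/6J (B6) and 5 DBA/2J (D2) inbred mice, with 1 poly-A library per mouse. All mice of both strains were male, ethanol-naïve and 9 weeks old, and no further allele or agent is named for either strain. The NAc is a part of the ventral striatum.

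A reference gene is the ruler of a qRT-PCR experiment. The amount of the transcript of interest is divided by that of the reference in the same cDNA, so that differences in RNA input and reverse transcription cancel. A reference that differs between the groups shifts every target measured against it by the same factor. The genes used for this purpose are mostly needed by every cell, as parts of the cytoskeleton, of sugar metabolism, of nucleotide salvage, of protein folding, of signalling scaffolds or of the transcription machinery. Many of the abundant ones have left processed pseudogenes in the genome, which are copies of the spliced mRNA without introns.

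Reads of both strains were aligned to GRCm39, which is a B6 genome, so that reads carrying D2 alleles could be assigned differently from B6 reads. The counts on genes summed to between 96977262 and 111468080 per B6 library and between 104443243 and 116776714 per D2 library. B6 replicates 3 and 5 stood apart in the summed level of 6 markers of cortex neurons, with 107009 and 108288 normalized counts, whereas the other B6 mice had between 17613 and 27206 and the D2 mice between 31346 and 71115. The fold changes of the reference genes are therefore also given without these 2 libraries, which is a comparison added after the data were seen. So are the ratios of Nin to Ublcp1 and Ppp2r2a and of Ublcp1 to Ppp2r2a. The spread between mice, levels per length, marker lists, all other ratios and the shares of genes not overlapping are given with them only. Of 8 markers of striatal neurons, the lowest mean was 13512 normalized counts, so markers of the labelled tissue were expressed.

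The primers that the study listed for its reference genes are shown first, since they define which stretch of each mRNA the qRT-PCR read. All are written 5′ to 3′, and no base is marked.
Ublcp1 forward: tcctggtgctggatgttgac
Ublcp1 reverse: tcacgcccagctctttcatt
Ppp2r2a forward: atctctcacccttgcccttt
Ppp2r2a reverse: cccattttgtgtgctttcgt
Sort1 forward: atctctcacccttgcccttt
Sort1 reverse: gaaggctgcactcgttcttg

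The Ublcp1 primers lie in coding exons on chromosome 11 of GRCm39. The forward primer covers 44356205 to 44356224 in exon 5 of 11, and the reverse primer crosses the junction of exon 7 (44352146 to 44352152) with exon 8 (44351634 to 44351646). Their product was 183 bp in 21 of the 28 annotated Ublcp1 transcripts. Both Ppp2r2a primers lie in the 3′ UTR, in exon 10 of 10 on chromosome 14 (67253324 to 67253343 and 67253265 to 67253284), and gave 79 bp in 13 of 16 transcripts. The forward primer listed for Sort1, the other reference gene of the qRT-PCR, has the same letters as the Ppp2r2a forward primer. It matched 0 of the 18 Sort1 transcripts and 13 of Ppp2r2a, while the Sort1 reverse primer matched 15 of the 18. Whether the listed sequence is the one that was used cannot be read from these data.

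The reference genes split into those that were lower in D2 and those without a detected difference. Ublcp1, Ppp2r2a, Actb and Gapdh were lower in D2, with mean levels between 0.700 and 0.796 times those of B6, and the strains did not overlap for any of these 4. Hprt, Tbp, Ppia, Ywhaz, Pgk1 and Gusb overlapped between the strains and did not pass the test. The test was edgeR's quasi-likelihood test on the raw counts, scaled by TMM. Its p-values were adjusted by Benjamini and Hochberg's method across the 29883 genes, and genes below 0.05 were called. Of all genes 18.3% passed, 9.83% as lower in D2 and 8.5% as higher. Among the 10645 genes whose mean reached 1000 counts, a group that holds all 10 reference genes, 22.3% passed and 12.4% were lower. Normalized counts of 16% of all genes did not overlap between the strains. In bulk tissue, fewer cells of a type and less RNA per cell cannot be told apart.

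**Figure D1:**
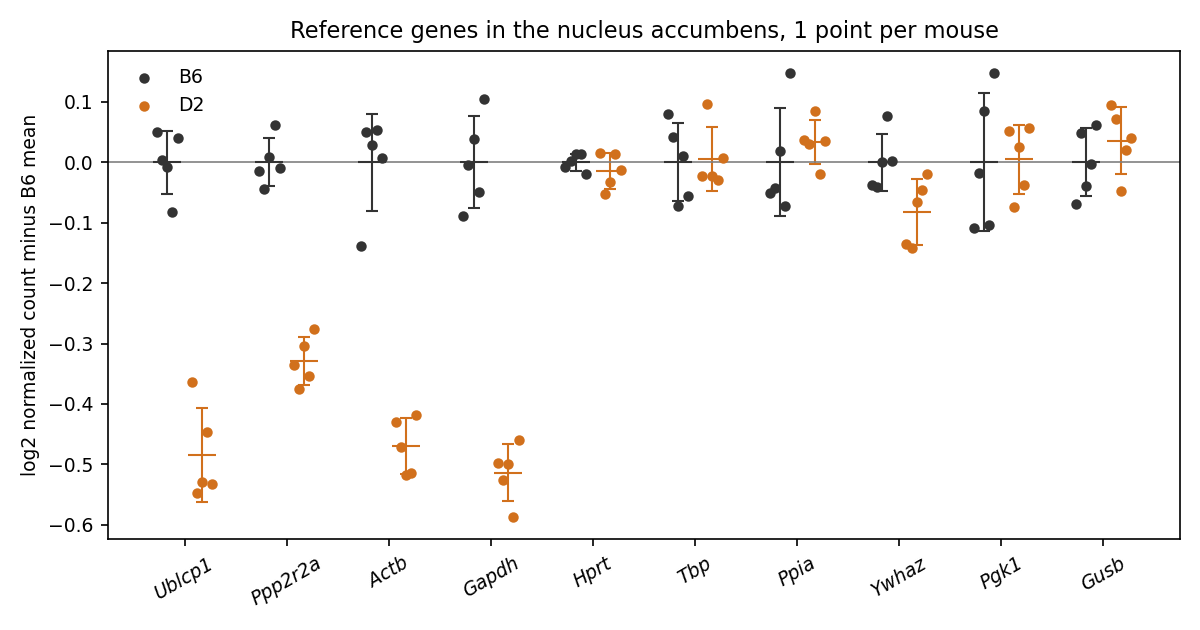
Normalized counts of the 10 reference genes on a log2 scale, set to the mean of the B6 mice at 0, with 1 point per mouse (B6 dark, D2 orange), a bar at the mean of each strain and whiskers of 1 SD (n = 5). The D2 points of Ublcp1, Ppp2r2a, Actb and Gapdh all lie below the B6 points, whereas the strains overlap for the other 6 genes, with 4 of the 5 D2 points of Ywhaz below its B6 points.

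Ublcp1 (ENSMUSG00000041231, chromosome 11, 44345163 to 44362010, reverse strand) encodes a nuclear phosphatase with a ubiquitin-like domain that acts on the proteasome. Its normalized counts were 3831, 3708, 3679, 3495 and 3803 in B6 replicates 1 to 5, and 2876, 2532, 2564, 2717 and 2558 in the D2 mice. The highest D2 mouse thus stayed below the lowest B6 mouse. Means were 3703 ± 132 for B6 and 2649 ± 146 for D2 (SD, n = 5 each). On the log2 scale Ublcp1 fell by 0.48 in D2 (standard error 0.044, 95% interval −0.58 to −0.39, edgeR adjusted p = 5.38e-06).

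Ppp2r2a (ENSMUSG00000022052, chromosome 14, 67251505 to 67310148, reverse strand) encodes a regulatory B subunit of protein phosphatase 2A, which directs the enzyme to its substrates. B6 mice had 16068, 15731, 16329, 16943 and 16116 normalized counts, and D2 mice had 12862, 12521, 13152, 12698 and 13399. Here too every D2 mouse was below every B6 mouse, with means of 16237 ± 449 and 12926 ± 352 (SD, n = 5 each). On the log2 scale this was a change of −0.33 (standard error 0.032, 95% interval −0.40 to −0.26, edgeR adjusted p = 8.55e-06). This was the smallest change among the 4 genes that passed, as long as pseudogene reads were left apart. Sort1, a sorting receptor of the Golgi that completed the study's set of references, had 46443 to 61772 normalized counts in B6 (median 48365) and 46462 to 50721 in D2 (median 46971). Its highest values, 60165 and 61772, came from B6 replicates 3 and 5, and its difference of −0.15 did not pass (95% interval −0.32 to 0.02, edgeR adjusted p = 0.234).

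Actb (ENSMUSG00000029580, chromosome 5, 142888870 to 142892509, reverse strand) encodes cytoplasmic beta-actin, a building block of the cytoskeleton. Normalized counts were 90237, 102864, 101408, 103160 and 99891 in B6 and 73805, 71724, 69422, 69616 and 74391 in D2. B6 replicate 1 was the lowest of its strain and still above all D2 mice. Means were 99512 ± 5346 for B6 and 71792 ± 2300 for D2 (SD, n = 5 each), a log2 fold change of −0.47 (standard error 0.044, edgeR adjusted p = 6.14e-06).

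Gapdh (ENSMUSG00000057666, chromosome 6, 125135289 to 125143518, reverse strand) encodes glyceraldehyde-3-phosphate dehydrogenase, an enzyme of glycolysis. Normalized counts were 145615, 154493, 159029, 149777 and 166630 in B6, against 109761, 107642, 109563, 103142 and 112692 in D2. Counted without its pseudogenes, which are described further on, Gapdh showed the largest change of the 10 genes, from 155109 ± 8171 to 108560 ± 3526 (SD, n = 5 each), or −0.51 on the log2 scale (standard error 0.044, 95% interval −0.61 to −0.42, edgeR adjusted p = 2.90e-06). Of the genes whose mean reached 1000 counts, 97.1% changed less than Gapdh, 96.7% less than Ublcp1, 96.5% less than Actb and 92.6% less than Ppp2r2a.

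Hprt (ENSMUSG00000025630, X chromosome, 52076892 to 52111304, forward strand) encodes the enzyme that salvages hypoxanthine and guanine for purine synthesis. Its normalized counts were 10150, 10226, 10304, 10306 and 10080 in B6 and 10315, 9843, 9979, 10312 and 10122 in D2. D2 replicates 2 and 3 were below all B6 mice and D2 replicates 1 and 4 above them, with a log2 fold change of −0.014 (standard error 0.027, edgeR adjusted p = 0.797). As a percentage, the 95% interval reached from −4.90% to 3.13%, and its standard error on the log2 scale was the lowest of the 10 genes.

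Tbp (chromosome 17, 15720150 to 15748641, forward strand) encodes the TATA-binding protein, around which the general transcription factor TFIID assembles. B6 mice had 4318, 4207, 3888, 4115 and 3931 normalized counts and D2 mice 4025, 4368, 4022, 4004 and 4106. The highest value came from D2 and the lowest from B6, with the others mixed, and the log2 fold change was 0.0046 (95% interval −0.08 to 0.09, edgeR adjusted p = 0.960). Pgk1 (X chromosome, 105230706 to 105247305, forward strand) encodes phosphoglycerate kinase, which forms ATP in glycolysis. It had 23023, 24522, 26336, 23119 and 27506 normalized counts in B6 and 25730, 23606, 25271, 24209 and 25831 in D2. B6 replicates 3 and 5 held its highest values, and the difference was 0.0017 (95% interval −0.11 to 0.12, edgeR adjusted p = 0.988).

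Ppia (chromosome 11, 6365443 to 6369817, forward strand) encodes cyclophilin A, a peptidyl-prolyl isomerase that assists protein folding. It had 38120, 38344, 39974, 37550 and 43732 normalized counts in B6 and 40500, 40294, 41855, 38946 and 40461 in D2. Its log2 fold change was 0.031 (95% interval −0.06 to 0.13, edgeR adjusted p = 0.712). Ywhaz (chromosome 15, 36770975 to 36797340, reverse strand) encodes 14-3-3 zeta, an adaptor that binds phosphorylated proteins. With 90163, 89905, 92578, 97529 and 92591 in B6 and 84183, 83814, 88410, 89574 and 91285 in D2, it came nearest to a difference among the 6 genes that did not pass. Its log2 fold change was −0.082 (95% interval −0.17 to 0.0029, edgeR adjusted p = 0.186).

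Gusb (chromosome 5, 130017852 to 130031903, reverse strand) encodes the lysosomal enzyme beta-glucuronidase and had the lowest counts of the 10 genes. B6 mice had 1386, 1504, 1414, 1451 and 1517 normalized counts and D2 mice 1552, 1527, 1406, 1474 and 1494. Its difference was 0.035 on the log2 scale (95% interval −0.06 to 0.14, edgeR adjusted p = 0.685). For these 6 genes the intervals bound the difference and do not show that the strains are equal.

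Without B6 replicates 3 and 5, the same 4 genes passed. The log2 fold changes were then −0.47 for Ublcp1, −0.33 for Ppp2r2a, −0.46 for Actb and −0.47 for Gapdh. Ppia rose from 0.031 to 0.087 (edgeR adjusted p = 0.095) and Pgk1 from 0.0017 to 0.081, while Tbp changed sign to −0.04, and none of the 3 passed. The marker lists were tested with all mice of both strains. Several held genes that passed, against 18.3% of all genes and 22.3% of those whose mean reached 1000 counts. Of 8 striatal neuron markers, 5 were lower in D2 (median log2 fold change of the 8 −0.32). The 3 others did not pass, with log2 fold changes of −0.23, −0.061 and −0.015. The summed level of the 8 lay between 390376 and 516811 normalized counts in B6 and between 330283 and 402477 in D2. B6 replicates 3 and 5 had the lowest B6 sums, at 393930 and 390376. For oligodendrocytes, 3 of 5 markers were lower (median −0.35), with sums of 429973 to 628818 in B6 and 325132 to 475169 in D2. The highest B6 sums, 628818 and 624511, were those of B6 replicates 3 and 5. Of the other lists, astrocytes had 1 marker higher and 2 lower of 5, microglia 1 higher of 5 and blood 2 lower of 4. None passed in edgeR among 6 cortex neuron, 4 endothelial and 4 choroid plexus and ependyma markers, of which 0, 1 and 1 had an unadjusted p below 0.05 and 0, 1 and 0 passed in DESeq2. No marker of any list was at 0 in all mice. With the cortex neuron markers as a covariate, the same 4 genes passed. Their log2 fold changes were then −0.48 for Ublcp1, −0.33 for Ppp2r2a, −0.47 for Actb and −0.53 for Gapdh. The part of the other lists in the difference of the reference genes was not tested.

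The genes around a reference gene did not all move with it. None of the 10 other genes within 1 Mb of Ublcp1 passed the test in edgeR, while 2 had an unadjusted p below 0.05 and 1 passed in DESeq2. Around Ppp2r2a 7 of 25 passed (28%, 4 of them lower in D2), around Actb 8 of 51 (15.7%, 4 lower) and around Gapdh 12 of 67 (17.9%, 10 lower), against 18.3% of all genes. For the 6 other reference genes these counts ranged from 1 of 41 around Ywhaz to 5 of 23 around Pgk1.

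Processed pseudogenes bore on 2 of the 4 genes that were lower in D2. Annotated pseudogenes with at least 90% identity over at least 50% of the coding sequence were searched with BLAST, and their rows in the count table were summed. Hprt, Tbp and Gusb had none, and the single one of Actb had no row. Gapdh had 155, of which 77 had a row, and they held 1.34% of the reads of Gapdh and its pseudogenes in B6 and 17.7% in D2. For Ublcp1 the only such pseudogene, Gm12663, held 0.177% in B6 and 6.86% in D2. In the other genes the share was alike in both strains, with 3.61% and 3.75% for Ppia as the highest.

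Most of the D2 reads on Gapdh pseudogenes fell on Gm13394, a transcribed processed pseudogene on chromosome 2 (28823622 to 28824621, reverse strand). Its raw counts were 298, 10, 116, 1110 and 94 in B6 and 23710, 21770, 22666, 22620 and 22632 in D2. The lowest D2 library held many times the count of the highest B6 library, and the log2 fold change was 5.99 (standard error 0.72, edgeR adjusted p = 6.12e-05). In the reference genome Gm13394 differs from the coding sequence of Gapdh at 1 of 999 bases, A346C, with positions counted from 1 at the first base of the start codon. The surrounding 25 bases are shown because they hold the only base of the coding sequence by which a read of the reference copy could be told apart from Gapdh, with the differing base in capitals. In Gapdh they lie in exon 4 of 7 (chromosome 6, 125139967 to 125139991) and in Gm13394 at 28824264 to 28824288 of chromosome 2.
Gapdh: ggtggagccaaaAgggtcatcatct
Gm13394: ggtggagccaaaCgggtcatcatct

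Gm12663 on chromosome 11 (16585109 to 16586066, reverse strand) is the corresponding copy of Ublcp1 and differs from it at 6 of 955 aligned bases. It had 5, 8, 2, 12 and 4 counts in B6 and 205, 196, 165, 253 and 199 in D2, a log2 fold change of 4.89 (standard error 0.27, edgeR adjusted p = 6.36e-08). Each of the Ublcp1 primers shown above differs from Gm12663 at 1 of 20 bases. The Ppp2r2a primers differ from Gm19221, the pseudogene of Ppp2r2a, at 9 and 7 of 20 bases at the least, and Gm19221 had between 0 and 3 counts in every library. The most counted pseudogenes of Ppia (Gm10123, 1222 to 1745 counts), Ywhaz (Gm4202, 170 to 200) and Pgk1 (Pgk1-rs7, 6 to 21) overlapped between the strains.

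When the pseudogene reads were added to their gene before the fit, an alternative chosen after the data were seen, the log2 fold change of Gapdh went from −0.51 to −0.25 (standard error 0.044, edgeR adjusted p = 0.00111) and that of Ublcp1 from −0.48 to −0.38 (edgeR adjusted p = 4.08e-05). Both still passed. The order of the 4 genes turned over, and Gapdh then changed least, after Actb, Ublcp1 and Ppp2r2a. Gapdh and its pseudogenes together had 150223 ± 9246 raw counts in B6 and 137499 ± 4967 in D2 (SD, n = 5 each), before any scaling to the deeper D2 libraries. Ppp2r2a stayed at −0.33, Actb at −0.47, and the 6 other genes moved by less than 0.01. How reads matching several places were counted is not given in the sources used here, so whether the D2 reads on Gm13394 and Gm12663 were transcribed from the gene or from the copy cannot be told apart.

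**Figure D2:**
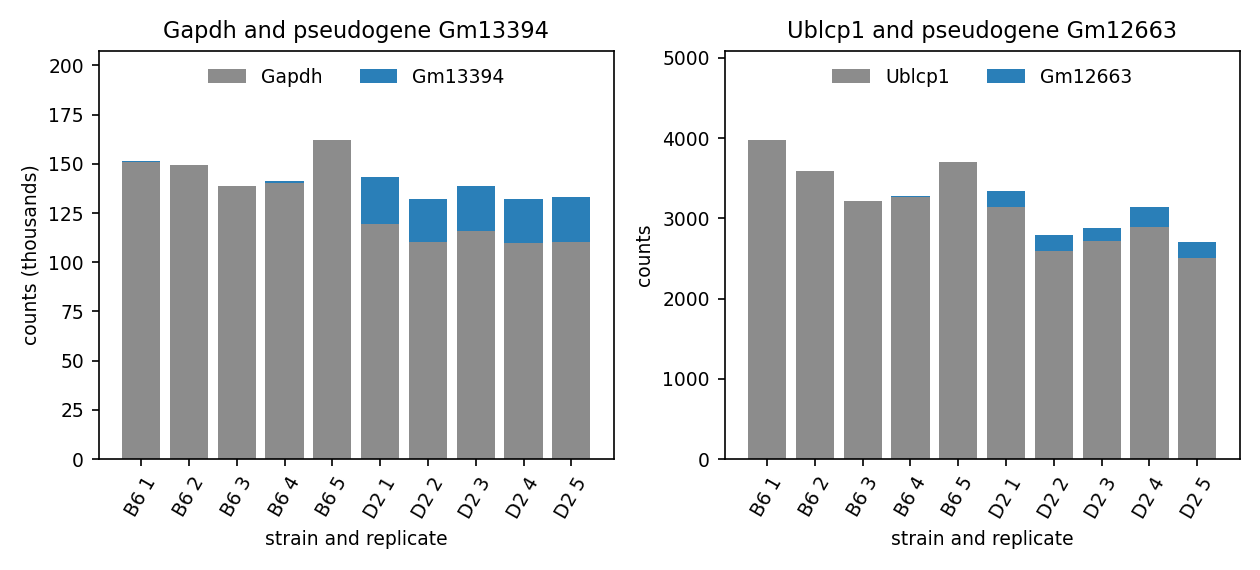
Raw counts of Gapdh with its pseudogene Gm13394 (left, in units of 1000 counts) and of Ublcp1 with its pseudogene Gm12663 (right), stacked in 1 bar per mouse. Gm13394 adds between 10 and 1110 counts to the B6 bars and between 21770 and 23710 to the D2 bars, and Gm12663 adds at most 12 counts in B6 and at least 165 in D2.

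**Figure D3:**
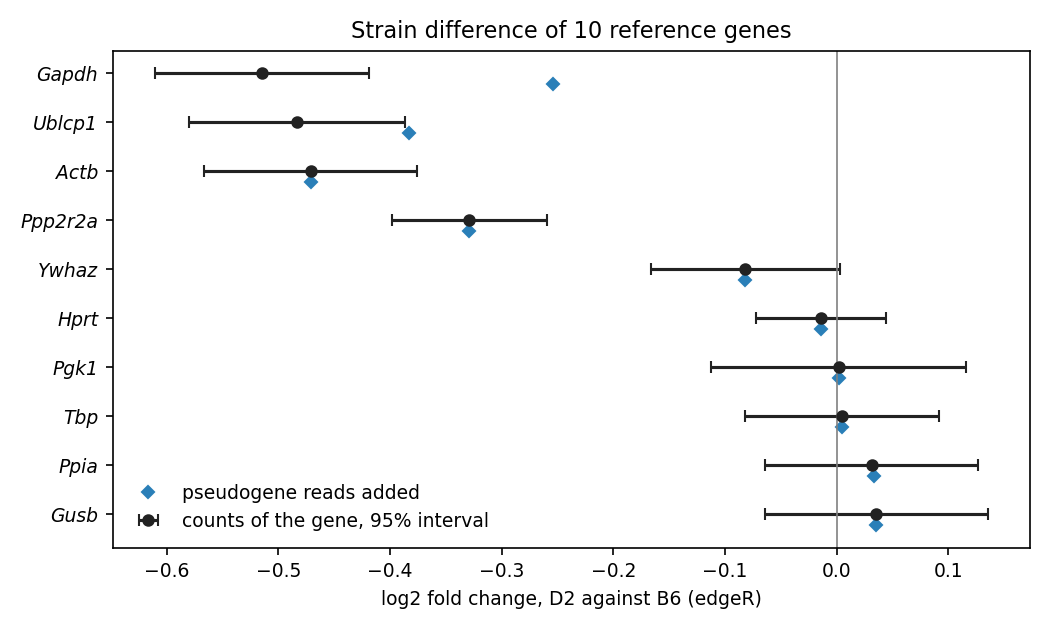
Log2 fold change of D2 against B6 for each reference gene, with its 95% interval (black, edgeR) and the value after the pseudogene reads were added (blue diamond). The intervals of Gapdh, Ublcp1, Actb and Ppp2r2a lie below 0 and those of the other 6 genes include 0, and the diamond of Gapdh lies at −0.25 against −0.51 for the gene alone.

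A low spread between mice is the other property asked of a reference. Hprt varied least, with a standard deviation of 0.023 on the log2 scale within strains and a coefficient of variation of 0.964% in B6 and 2.05% in D2, where counting error alone gives 0.992%. Of the 10645 genes whose mean reached 1000 counts, 0.770% varied less, or 2.68% when scaled by total counts. Ppp2r2a came second with a coefficient of variation of 2.74%, and 9.94% of these genes varied less. Thus Ppp2r2a was steady within a strain while differing between the strains.

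The other genes were closer to the middle of the table, whose median coefficient of variation was 5.04%. The coefficient was 3.56% for Ywhaz, 3.82% for Gusb, 4.09% for Tbp, 4.38% for Gapdh, 4.42% for Actb, 4.65% for Ublcp1 and 4.83% for Ppia. Gusb was the gene for which counting error was the largest, at 2.61%. Pgk1 was the most variable of the 10 at 6.27%, with 7.95% in B6 and 3.93% in D2, and Sort1 reached 10.3%. Over all 10 mice, which takes in the strain difference, 93.0% of these genes varied less than Gapdh, 92.1% less than Ublcp1, 91.5% less than Actb and 82.8% less than Ppp2r2a, against 0.235% for Hprt. Pseudogene reads were left apart here. With them the log2 fold change of Gapdh went from −0.51 to −0.25, and the ranks were not computed.

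Levels between genes were compared as TMM-normalized RPKM, in which the counts are divided by the exon length and the library size. On this scale the mean over the 10 mice was 271 for Actb, 170 for Gapdh, 136 for Ywhaz, 106 for Ppia and 103 for Pgk1. A gap separated these from Ppp2r2a at 17.6, Hprt at 12.1, Ublcp1 at 4.22, Gusb at 2.53 and Tbp at 2.44. The ranges over the mice overlapped between Gapdh and Ywhaz, between Ppia and Pgk1 and between Gusb and Tbp, and these neighbours cannot be ordered over all mice. For Gapdh and Ywhaz the overlap came through D2, with 140 ± 4.56 and 132 ± 5.02 (SD, n = 5), while in B6 they had 201 ± 10.6 and 140 ± 4.63. These levels leave out the pseudogene reads, which for Gapdh held 1.34% in B6 and 17.7% in D2. The order with these reads added was not computed. The upper order depended on the length used. With the length of the canonical transcript, Gapdh (860) stood above Actb (413), Ppia (316) above Ywhaz (269), and Hprt (43.2) above Ppp2r2a (31.7). Ublcp1 and Ppp2r2a were thus both less abundant than the classical references Actb and Gapdh under either length.

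A ratio of the counts of 2 genes within a library needs no normalization. Of the 45 pairs of reference genes, 25 gave ratios that did not overlap between the strains. These included all 24 pairs of 1 gene that had passed the test and 1 that had not, with differences of 0.25 to 0.55 on the log2 scale. Among the 6 pairs of genes that had passed, only Ppp2r2a with Gapdh did not overlap (difference 0.18), and among the 15 pairs of the other 6 genes none did (largest difference 0.12). The groups of pairs follow from the calls on the same mice and are a description. With the pseudogene reads added, 22 of the 24 mixed pairs stayed apart, and Gapdh and Ublcp1 then each overlapped with Ywhaz. Among the 6 pairs of called genes, Ppp2r2a with Gapdh then overlapped and Actb with Gapdh did not.

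Averaging the standard deviation of the log2 ratios of a gene to the 9 others over the 10 mice gives the stability value of the geNorm method, in which a lower value is steadier. It was lowest for Ywhaz at 0.143 and Hprt at 0.144 and highest for Actb at 0.200, Ublcp1 at 0.212 and Gapdh at 0.215. Ppp2r2a had 0.160, Gusb 0.162, Ppia 0.163, Pgk1 0.164 and Tbp 0.167. Within strains the order differed, with Hprt at 0.0655, Gapdh at 0.0692 and Ppp2r2a at 0.0700 as the lowest, so that Gapdh moved from the last place to the next after Hprt. The value depends on which genes are put in the panel and on the pseudogene reads. With these added, Gapdh had 0.133 over the 10 mice, and the highest values were those of Actb at 0.208 and Ublcp1 at 0.179.

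**Figure D4:**
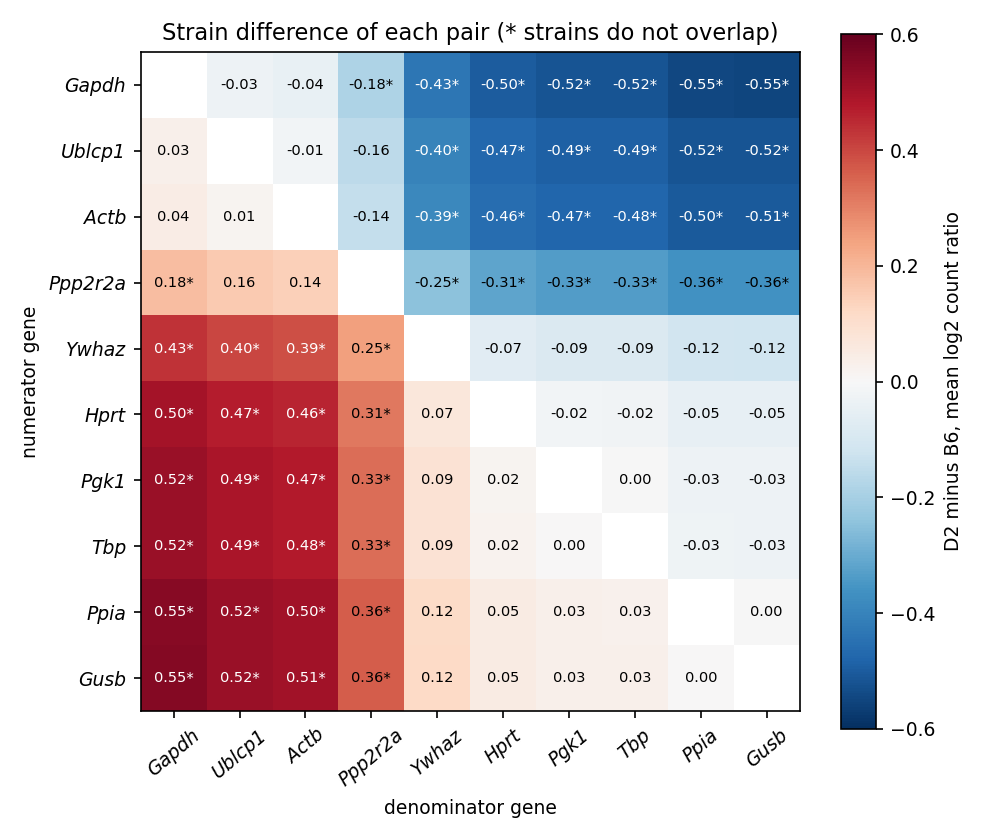
Difference between the strains in the mean log2 count ratio of each pair of reference genes (row over column, D2 minus B6), in colour and as a number, with an asterisk where the 5 B6 and the 5 D2 ratios do not overlap. The 24 pairs that join Gapdh, Ublcp1, Actb or Ppp2r2a with 1 of the other genes all carry an asterisk, and no pair of the other 6 genes does.

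Ublcp1 and Ppp2r2a were also compared with each other, since they were used side by side. The log2 ratio of Ublcp1 to Ppp2r2a was −2.07, −2.08, −2.15, −2.28 and −2.08 in B6 and −2.16, −2.31, −2.36, −2.22 and −2.39 in D2. The strains overlapped through B6 replicate 4, and the ratio was lower in D2 by 0.16 (two-sided exact permutation test, p = 0.0317). This call did not hold in every fit with a mouse left out, which also raises the smallest possible exact p from 0.0079 to 0.0159. Leaving out single mice gave differences from −0.19 to −0.13, and the exact p rose to 0.0635 without B6 replicate 1, 2 or 5 or D2 replicate 2, 3 or 5. Without B6 replicates 3 and 5 the difference was −0.14 (exact p = 0.107). With the pseudogene reads added to both genes, it was −0.055 (exact p = 0.341).

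Nin, which encodes the centrosomal protein ninein, was the target that the study measured against these references. With the geometric mean of Ublcp1 and Ppp2r2a as the reference, the log2 ratio was 0.44, 0.36, 0.45, 0.59 and 0.42 in B6 and 1.02, 1.24, 1.15, 1.15 and 1.09 in D2. Every D2 mouse lay above every B6 mouse, and the difference was 0.68 (exact permutation test, two-sided, p = 0.0079, which is the smallest that 5 mice against 5 can give). By TMM normalization the log2 fold change of Nin was 0.27. The direction was the same with each reference, while the size moved with the reference.

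With Ublcp1 alone the difference in Nin was 0.76 and with Ppp2r2a alone 0.60. It was 0.79 against Gapdh, or 0.52 once the pseudogene reads were added to Gapdh, and 0.74 against Actb. Hprt gave 0.29, Ywhaz 0.35 and Tbp 0.27, with the same exact p of 0.0079. The strains overlapped for the ratios to Ppia (0.24, exact p = 0.0238), Pgk1 (0.27, exact p = 0.0238) and Gusb (0.24, exact p = 0.0159). These ratios share the Nin counts and the mice, and are not independent of each other.

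Combined references gave values in between. Ublcp1, Ppp2r2a and Sort1 together gave 0.59, the 8 genes other than Ublcp1 and Ppp2r2a gave 0.40, and all 10 gave 0.45, each with the strains apart. Adding the pseudogene reads to Ublcp1 and Ppp2r2a changed 0.68 to 0.63, and leaving out B6 replicates 3 and 5 changed it to 0.67 (exact p = 0.0357). The counts cover the whole gene, whereas the qRT-PCR primers read single stretches, so these values are ratios of gene counts only.

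**Figure D5:**
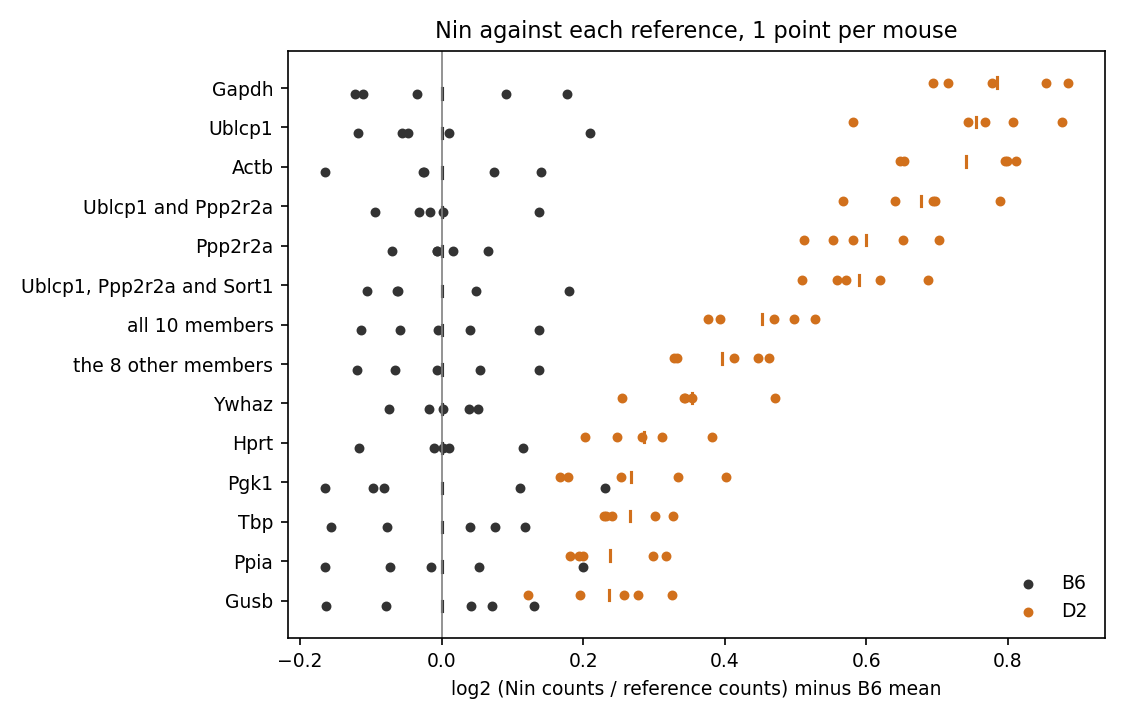
Log2 ratio of the Nin counts to each reference, set to the mean of the B6 mice at 0, with 1 point per mouse (B6 dark, D2 orange) and a line at the mean of each strain. The D2 mean lies at 0.79 with Gapdh as the reference, at 0.68 with Ublcp1 and Ppp2r2a together and at 0.24 with Gusb.

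The same shift holds for every gene in the table. With Ublcp1 as the only reference, the ratios of 47.3% of the genes did not overlap between the strains, 45% as higher and 2.32% as lower in D2. Ppp2r2a gave 40.8% (37.9% higher and 2.96% lower), and the geometric mean of both gave 45.7% (43% higher and 2.67% lower). With Actb the share was 47.1% (44.7% higher and 2.39% lower) and with Gapdh 50.2% (47.9% higher and 2.26% lower). With pseudogene reads added to the reference, the share was 32.3% for Gapdh and 41.2% for Ublcp1. Under each of these references the genes that stood apart were mostly higher in D2.

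The other references gave lower shares. With Hprt 15.4% of the ratios did not overlap, 7.7% as higher and 7.65% as lower in D2. The share was 13.7% with Tbp (6.44% higher and 7.27% lower) and 15.2% with Ywhaz (10% higher and 5.23% lower). With Pgk1 it was 12%, of which 5.22% were higher and 6.76% lower. Both directions were thus filled under these references, for Ywhaz with more genes higher, for Pgk1 with more lower and for Hprt and Tbp more evenly. Ppia gave 13.5% (5.2% higher and 8.29% lower) and Gusb 13.7% (5.13% higher and 8.61% lower), with more genes lower in D2. The geometric mean of all 10 gave 28.8%, with 24.7% higher and 4.09% lower. Under TMM normalization the share was 16%.

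In the fit across all genes, scaling to Ublcp1 and Ppp2r2a moved the median log2 fold change of all genes from 0.0036 to 0.41. Of 16809 genes that then passed, 6.69% were lower in D2, compared with 53.6% of 5478 under TMM normalization. Of the 10 reference genes 6 then passed, namely Hprt, Tbp, Ppia, Ywhaz, Pgk1 and Gusb, all as higher in D2, with log2 fold changes from 0.32 to 0.44. Scaling to the geometric mean of all 10 reference genes moved the median by 0.18 and let 11403 genes pass, 14.6% of them lower, and 9 of the 10 reference genes passed, in either direction. A call on a gene is thus a statement relative to the scale, while the pair ratios above do not depend on it.

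By the standard deviation of the log2 ratio over the 10 mice, the genes most like Ublcp1 among those whose mean reached 1000 counts were Fbxo44 (0.053), Cyp51 (0.055) and Slc35f5 (0.057). Those most like Ppp2r2a were Adgrb1 (0.039), Dnpep (0.039) and Asb3 (0.041). Their log2 fold changes lay between −0.48 and −0.30, and the shared direction follows from the choice, since a low deviation over both strains requires it. Of the other reference genes, Gapdh was nearest to Ublcp1, at 0.088.

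Other genes used as references, and the families to which the reference genes belong, were described by lists chosen for their function. Of 20 further reference genes, 0 were higher and 4 were lower in D2, with a median log2 fold change of −0.0038 against 0.0036 for all genes. Those lower included Rplp0 (−1.07) and Rps18 (−0.78), which encode ribosomal proteins, and B2m (−0.41), the light chain of MHC class I. For Rplp0, pseudogenes held 0.933% of the reads in B6 and 38.3% in D2.

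Of 16 glycolytic genes, 2 were higher and 3 lower (median −0.025). Those lower were Eno1 (−0.66), Gapdh and Aldoc (−0.37), and those higher were Pfkl (0.18) and Eno2 (0.11). The pseudogenes of Eno1, an enolase like Eno2, held 0.140% of the reads in B6 and 7.84% in D2. Among 16 subunits of protein phosphatase 2A, 3 were lower and none higher (median 0.0070), namely Ppp2r2a, the regulatory subunit Ppp2r5a (−0.15) and the catalytic subunit Ppp2cb (−0.11).

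Of 7 genes for 14-3-3 proteins, which include Ywhaz, Sfn (−1.54) and Ywhaq (−0.22) were lower. Of 14 cyclophilins, the family of Ppia, Ppib (−0.98) and Ppil1 (−0.43) were lower and Nktr (0.20) was higher. None of the 14 TFIID subunits passed in edgeR, while 3 had an unadjusted p below 0.05 and 1 passed in DESeq2. The shares of these lists that passed are read against the 18.3% of all genes.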

How the data were processed

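Poly-A RNA of the NAc of 5 B6 and 5 D2 mice was sequenced with 1 library per mouse. The authors aligned the trimmed reads with STAR 2.7.10b to GRCm39, sorted them with SAMtools 1.6 and counted them with featureCounts, per the labels and the methods. The strand setting and the treatment of multiply mapping reads are not given in the sources used here. As deposited, the table holds raw counts for 29883 genes, with a lowest median of 0.5, so that genes with a median of 0 had been removed. Of these, 29519 were in the annotation used here (GENCODE M39, GRCm39), which gave positions, exons, pseudogenes and primer sites.

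Counts were fitted with edgeR 4.0.16 (TMM, quasi-likelihood F test, two-sided, strain as the only term) in R 4.3.3 with Benjamini-Hochberg adjustment over all genes. Normalized counts are counts divided by the TMM-scaled library size and multiplied by its mean over the mice. Standard errors were taken as the absolute log2 fold change over the square root of F. Single ratios were tested by exact permutation (two-sided) over 252 assignments, or 126 with 1 mouse left out. On simulated data for D2 against B6, a log2 change of 1 was put into 200 of 29879 genes, of which edgeR found 156 (9 false calls) and DESeq2 1.42.0 found 164 (32 false calls). The closest pair of libraries within a strain, B6 replicates 3 and 5, differed by a chi-square of 4.89 on average (15388 genes). The next closest pair, D2 replicates 3 and 5, had 17.5. B6 replicates 3 and 5 against the other B6 mice had 85.5 to 118.9. The labels name B6 replicates 3 and 5 as separate mice, and the counts cannot exclude a repeat of the same sample. Nothing beyond the replicate labels says that the mice were of separate litters, so the p-values measure the spread between these mice. Pseudogenes were aligned with BLAST 2.17.0. Python 3.11.15 with pandas 2.3.3, numpy 2.4.6, scipy 1.17.1 and matplotlib 3.10.9 was used otherwise. No count interval covers more than counting error.

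Named genes were the 10 reference genes, Sort1 and Nin, up to 2 called genes with the largest change in each direction of each list, the 3 genes most like Ublcp1 and Ppp2r2a, and the most counted pseudogene of each reference gene. The 3 genes lower in D2 beyond that rule (B2m, Aldoc and Ppp2cb) were named after their values were seen, and 1 called gene of the lists is not reported here. The genes and lists were chosen with earlier results of these data known. Alternatives were other normalizations, DESeq2, filters on low counts, mitochondrial genes left out, the replicate number as a block, a cortex marker covariate, stricter thresholds, other references, lengths and each mouse left out. The qRT-PCR values were not analysed here.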

Additional observations from a re-analysis of the deposited data

Results flagged for a closer look

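Among 40 groups of 5 mice, 5 held a mouse whose gap to the nearest other exceeded 0.71 of the range of the group (Dixon's test), where chance gives about 1 in 20 groups. For Actb in B6 the gap share was 0.747, from replicate 1, which was the lowest with 90237 normalized counts. For Tbp in D2 it was 0.72, from replicate 2, which was the highest with 4368. Sort1 in D2 gave 0.825 through replicate 3, the highest with 50721. The Gapdh pseudogene Gm13394 gave 0.764 in B6, where replicate 4 had 1187 normalized counts, and 0.73 in D2, where replicate 5 had 23078. Leaving out any of these mice changed no edgeR call on a single reference gene. The exact permutation p for the ratio of Ublcp1 to Ppp2r2a rose to 0.0635 without B6 replicate 1 or D2 replicate 2, 3 or 5. It was 0.0159 without B6 replicate 4.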

How the results depend on the processing

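The number of reference genes that passed was 9 with the 10 reference genes and 6 with Ublcp1 and Ppp2r2a as the library size, and 4 in every other fit that was run, where Ublcp1, Ppp2r2a, Actb and Gapdh were those that passed (22 alternatives for single genes). Over these, log2 fold changes lay between −0.51 and −0.38 for Ublcp1, −0.34 and −0.30 for Ppp2r2a, −0.50 and −0.44 for Actb and −0.54 and −0.25 for Gapdh. The number of genes that passed was 11403 with the 10 reference genes and 16809 with Ublcp1 and Ppp2r2a as the library size, 3415 at an adjusted p of 0.01, 6175 in DESeq2, 7809 with the cortex markers as a covariate (49.9% lower in D2) and 4636 to 5676 with each mouse left out. With total counts, 45.04% of calls were lower in D2.

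Differences near 0 changed sign and passed under none of these settings. Hprt had 0.017 under total counts. Pgk1 had −0.00010 under upper-quartile normalization, −0.0049 with filterByExpr, −0.0025 with at least 10 counts in every sample, −0.0062 without mitochondrial genes, −0.020 with the cortex covariate and −0.025 to 0.033 with each mouse left out. Tbp had −0.0016 with filterByExpr, −0.0031 without mitochondrial genes, −0.039 without B6 replicates 3 and 5 and −0.019 to 0.025 with each mouse left out. The cause was not tested.

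With each mouse left out, the difference of Nin to Ublcp1 and Ppp2r2a lay between 0.65 and 0.71, and that of Ublcp1 to Ppp2r2a between −0.19 and −0.13, and the latter was −0.14 (exact p = 0.107) without B6 replicates 3 and 5 and −0.055 (exact p = 0.341) with the pseudogene reads added. Same-numbered mice correlated between −0.41 and 0.37 in their deviations. Only for replicates 1 and 3 was the D2 mouse of the same number the best match of the B6 mouse. These correlations cannot show whether the numbers pair the mice. With the replicate block 4731 genes and 4 reference genes passed. The block gave an exact p of 0.0625, the smallest for 5 pairs, for the Nin ratio (0.68), and 0.125 for Ublcp1 to Ppp2r2a (−0.16).

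Under total counts, the share of genes varying less went from 39.1% to 19.97% for Gapdh, from 44.9% to 23.2% for Ppia, from 64.8% to 49.0% for Pgk1, from 33.3% to 48.5% for Tbp and from 0.770% to 2.68% for Hprt, and levels per length moved with the length. Gusb had the fewest counts and the largest counting error, at 2.61%, beside a coefficient of variation of 3.82%. With 5 mice per strain, the precision of every gene is limited.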
